A study of Mus musculus with 6 samples.

Results

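Of 10 core genes of fatty acid synthesis, 6 fell in the livers of Enpp7 knockout mice compared with wildtype mice. These are genes of de novo lipogenesis, taken by name: the transcription factor gene Srebf1, the enzyme genes Acly, Acss2, Acaca, Acacb, Fasn, Me1, Elovl6 and Scd1, and the regulator gene Thrsp. All 10 were found among the 23415 genes of the authors' deposited table, and all 10 were among the 11515 genes the authors tested. The 6 that fell were Elovl6, Thrsp, Fasn, Me1, Acacb and Acaca, to between 35.3% and 58.4% of the wildtype level, and the remaining 4 did not pass the test. No member rose.

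De novo lipogenesis is the synthesis of fatty acids from acetyl-CoA in the cytosol. Hepatocytes run it when carbohydrate is plentiful, under the control of the transcription factors SREBP-1c (from Srebf1), which insulin activates, and ChREBP (from Mlxipl), which glucose activates. Citrate exported from mitochondria is split to acetyl-CoA, acetyl-CoA carboxylase makes malonyl-CoA from it, fatty acid synthase builds palmitate at the expense of NADPH, and an elongase and a desaturase turn palmitate into longer and monounsaturated fatty acids.

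RNA was sequenced from 3 knockout and 3 wildtype libraries on the C57BL/6 strain. The letters K and W that open the sample names were read as knockout and wildtype; no label gives the genotype in words, and none gives age, sex, diet or whether the deletion is limited to a tissue. Enpp7 encodes alkaline sphingomyelinase, an intestinal enzyme that splits dietary sphingomyelin. The comparison asks which liver transcripts differ when it is missing. The deposited table holds 1 value per group, treated as FPKM (fragments scaled for transcript length and sequencing depth), so neither a value per mouse nor an overlap between the groups can be given, and read totals are unknown. The error after each log2 ratio of knockout over wildtype is the standard error (SE) that the authors' test statistic implies. Rose and fell are used only of genes with a deposited q (the authors' p adjusted for all tests) under 0.05. Whether the libraries came from separate mice is not stated beyond the animal numbers in their names, so the p-values measure only the spread that the authors' model saw.

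The sample labels name liver, while the series' design text names intestine. Hepatocyte markers summed to 29830.5 FPKM in the knockout and 27105.2 FPKM in the wildtype group over 10 listed genes, led by Apoa1, an apolipoprotein of high-density lipoprotein, at 16007 and 11662 FPKM. Alb is listed at 0 in both groups and carries the mark for too much data, so it has no value here. The 10 intestinal epithelium markers summed to 95.01 and 80.8 FPKM. The highest in wildtype was Fabp2, an intestinal fatty acid binding protein, at 42.9 FPKM in knockout and 54.7 FPKM in wildtype. In knockout it was Tff3, a peptide of mucus-secreting cells, at 48.8 FPKM against 23.9 FPKM in wildtype, with a log2 ratio of 1.03 ± 0.31 that did not pass (q = 0.0775). No other gene of that list exceeded Lgr5, at 1.00 FPKM in knockout and 0.884 FPKM in wildtype. Vil1 was at 0.738 and 0.443 FPKM. Enpp7 itself was at 0.141 FPKM in knockout and 0.0541 FPKM in wildtype and was not tested, so its level does not check the genotype labels.

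Of the 10 genes, 6 fell and 0 rose, where 0.504% of all tested genes fell and 0.573% rose. At an unadjusted p under 0.05 in the authors' deposited table, 8 were lower and 0 higher, against 2.47% and 2.82% of tested genes. All 10 ratios were below 0, as were 50.1% of tested genes, and 4 lay at or under -1, as did 0.686%. The median log2 ratio of the 10 was -0.89, beside -0.0012 for all tested genes. Summed over the 10 genes, expression was 4429 FPKM in wildtype and 1975 FPKM in knockout livers, or 0.784% and 0.306% of the listed FPKM. Scd1 and Thrsp made up 84.5% of the wildtype sum. The other 8 genes summed to 687 FPKM in wildtype and 417 FPKM in knockout, which is 60.7% of the wildtype sum.

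**Figure D1:**
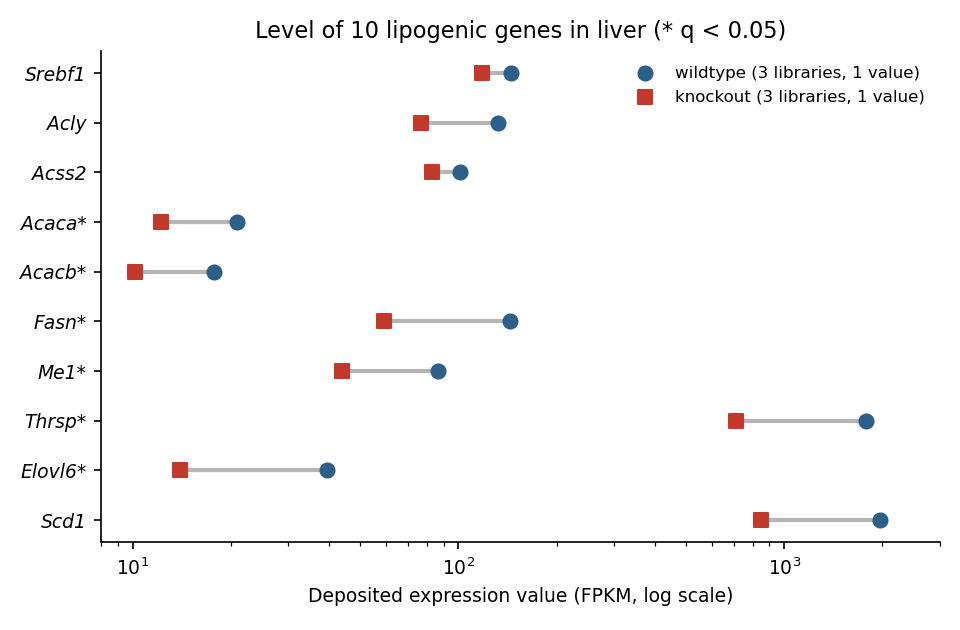
Deposited expression value of each of the 10 genes (FPKM, log axis) in the wildtype group (circles) and the knockout group (squares), in the order of their roles; each point is the authors' single value for 3 libraries, so no error bar is drawn, and an asterisk marks q under 0.05. Every knockout value lies to the left of its wildtype value, with the shortest lines for Acss2 and Srebf1 and the longest for Elovl6.

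In wildtype livers the order of levels ran from Scd1 at 1964 FPKM and Thrsp at 1778 FPKM through Srebf1 (145), Fasn (144), Acly (133), Acss2 (101) and Me1 (86.3) to Elovl6 (39.6), Acaca (20.9) and Acacb (17.8 FPKM). With 1 value per group, it cannot be said which neighbours in this order differ beyond the spread between mice. In the knockout group Fasn moved from the 4th place to the 6th, behind Acss2 and Acly, and Acss2 from the 6th to the 4th, while the other places were the same but for that exchange. Scd1 was the 33rd most abundant of the tested transcripts in wildtype and the 102nd in knockout livers, and Thrsp the 36th and the 124th.

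Srebf1 encodes SREBP-1, the transcription factor that drives most of the other genes of the list. Its value was 145 FPKM in wildtype and 118 FPKM in knockout livers, a log2 ratio of -0.30 ± 0.26 (SE) that did not pass (q = 1.00 in the authors' deposited table). Its 95% interval ran from -0.81 to 0.21. The gene lies on the minus strand of chromosome 11 at 60199089 to 60222581 (mm10, GENCODE M21). The deposited locus, 60105013 to 60220604, runs further at its low end, since it is shared with Rai1. Exons of Rai1 overlap 1.93% of the exonic bases of Srebf1 on the opposite strand. Rai1 stood at 1.89 FPKM in knockout and 1.70 FPKM in wildtype. At its high end the deposited locus stops short of the GENCODE end, so a start site there lies outside it. The value is not split by start site, so the SREBP-1a and SREBP-1c forms were not told apart.

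Acly and Acss2 supply acetyl-CoA to the cytosol, Acly from citrate and Acss2 from acetate. Acly (chromosome 11, 100476352 to 100528000) was at 133 FPKM in wildtype and 77.0 FPKM in knockout, a log2 ratio of -0.79 ± 0.26. It did not pass (q = 0.142 in the authors' deposited table), although its ratio was a little larger in size than that of Acaca, which did. Acss2 (chromosome 2, 155517948 to 155585724 in GENCODE M21) was at 101 and 83.2 FPKM, a log2 ratio of -0.28 ± 0.24 with a 95% interval from -0.74 to 0.18. Acly was the more abundant of this pair in wildtype livers, at 1.31 times the level of Acss2, and the less abundant in knockout livers, at 0.925 times. The difference between both ratios was -0.50 with a combined SE of 0.35, taking the errors of both genes as independent. Gss, a glutathione synthesis gene on the opposite strand, was at 60.2 FPKM in knockout and 53.1 FPKM in wildtype. Its exons overlap 3.89% of the exonic bases of Acss2 in GENCODE M21. Without a stated strand setting, reads from such a stretch cannot be told apart. The deposited locus of Acss2, 155518043 to 155562743, is shorter, however, and is shared with 4930471I20Rik and not with Gss.

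Acaca and Acacb encode the carboxylases that make malonyl-CoA, the cytosolic form that feeds synthesis and the form at the mitochondrial surface whose malonyl-CoA restrains fatty acid import. Acaca (chromosome 11, 84195438 to 84401651) fell from 20.9 to 12.2 FPKM, a log2 ratio of -0.78 ± 0.22, with q = 0.0464 in the authors' deposited table. Acacb (chromosome 5, 114165518 to 114250758) fell from 17.8 to 10.1 FPKM, a log2 ratio of -0.81 ± 0.22 (q = 0.0336 there). The 2 ratios differed by 0.03 with a combined SE of 0.32. These positions are the deposited loci, and GENCODE M21 starts Acaca further upstream at 84129672 and Acacb at 114146535. Acaca had the smallest ratio in size of all 124 called genes, and its SE was smaller than that of all but 2.89% of tested genes.

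Fasn encodes fatty acid synthase, the multifunctional enzyme that builds palmitate. It fell from 144 to 59.1 FPKM, to 41.1% of the wildtype level, with a log2 ratio of -1.28 ± 0.27 (q = 0.000664 in the authors' deposited table). The gene lies on chromosome 11 at 120805958 to 120824547, 1.81 Mb from Enpp7, the gene deleted in these mice. Within 5 Mb of Enpp7, 148 genes were tested, of which 1 fell (Fasn), 1 rose (Socs3) and 5 and 4 were lower and higher at an unadjusted p under 0.05, with a median log2 ratio of 0.03. Srebf1, Acaca and Acly share the chromosome with Enpp7 at distances of 58.8, 34.6 and 18.5 Mb. Whether sequence carried along with the deleted allele has a part in the Fasn value was not tested.

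Me1 encodes cytosolic malic enzyme, a source of the NADPH that fatty acid synthase uses. It fell from 86.3 to 43.9 FPKM, a log2 ratio of -0.98 ± 0.23 (q = 0.00423 in the authors' deposited table). The gene lies on the minus strand of chromosome 9 at 86581371 to 86695953 (GENCODE M21). Its deposited locus is shared with the antisense transcript A330041J22Rik, which was at 0.0992 FPKM in knockout and 0.119 FPKM in wildtype.

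Thrsp encodes Spot 14, a small protein induced by thyroid hormone and carbohydrate that takes part in the control of lipogenesis. It fell from 1778 to 711 FPKM, a log2 ratio of -1.32 ± 0.28 (q = 0.00071 in the authors' deposited table), and the difference of -1066.5 FPKM was, among the 10 genes, exceeded only by that of Scd1. The gene lies on the minus strand of chromosome 7 at 97412957 to 97417510. Its relative Mid1ip1, a partner of acetyl-CoA carboxylase chosen here after its values were seen, was at 51.9 FPKM in wildtype and 37.0 FPKM in knockout (log2 ratio -0.49 ± 0.22, q = 0.704), which did not pass.

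Elovl6 encodes the elongase that lengthens palmitate to stearate. It had the largest fall of the 10 genes, from 39.6 to 14.0 FPKM, which is 2.83-fold lower, with a log2 ratio of -1.50 ± 0.23 (q = 2.35e-08 in the authors' deposited table). By p it was the 24th of all tested genes. The gene lies on the plus strand of chromosome 3 at 129532386 to 129638493.

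Scd1 encodes stearoyl-CoA desaturase 1, which turns stearate and palmitate into monounsaturated fatty acids. Its value was 1964 FPKM in wildtype and 847 FPKM in knockout livers, the largest absolute difference of the list at -1118 FPKM. The log2 ratio of -1.21 ± 0.45 was close to that of Fasn, but it did not pass (q = 0.299 in the authors' deposited table). The 95% interval ran from -2.09 to -0.34. The SE of Scd1 was 0.45, where the other 9 genes had 0.22 to 0.28. It was above that of 93.5% of the 200 tested genes nearest to it in expression, whose median SE was 0.29. Thrsp, at nearly the same level as Scd1, had an SE of 0.28. The share of 93.5% does not set Scd1 apart, since Fasn, which passed, had the same share among its own 200 nearest genes (SE 0.27, median 0.23). Scd1 lies on chromosome 19 at 44394450 to 44407709 beside the related genes Scd2, Scd3 and Scd4. These copies, named after their values were seen, stood at 1.21, 0.141 and 0.0754 FPKM in knockout and at 1.54, 0.117 and 0.122 FPKM in wildtype. The sources used here do not say how the authors assigned reads that match several copies.

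**Figure D2:**
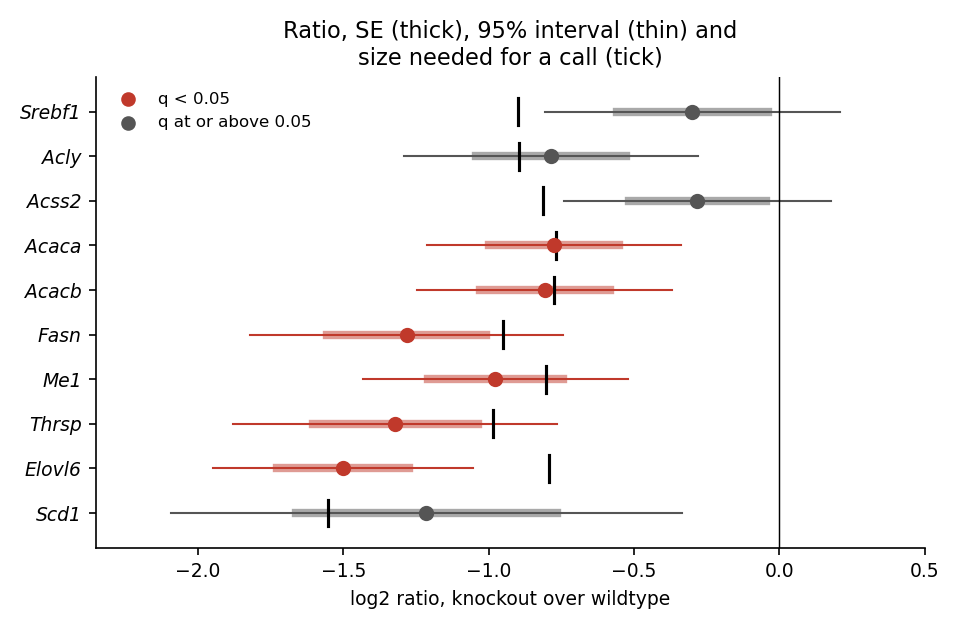
Log2 ratio of knockout over wildtype for each gene (points), with its SE (thick bar), its 95% interval (thin bar) and a vertical tick at the negative ratio that would have been needed for a call at that gene's SE; red marks q under 0.05. Scd1 has the widest interval and would have needed a fall of 1.55, while Srebf1 and Acss2 are the only genes of the 10 whose interval includes 0.

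The SE sets what could be called. The smallest test statistic of a called gene was 3.46 in size, which at the SE of each gene gives the ratio a call needed. That ratio was 0.90 for Srebf1, 0.89 for Acly, 0.81 for Acss2 and 1.55 (2.94-fold) for Scd1 on the log2 scale. Differences of the size measured for Srebf1 and Acss2 could therefore not have been called, and their q does not show that the genes were unaltered. The ratios of the 10 genes ranged from -1.50 to -0.28. Per unit of Srebf1 expression, the level of Fasn was 0.992 in wildtype and 0.502 in knockout livers, that of Elovl6 0.273 and 0.119, and that of Scd1 13.5 and 7.18. The log2 ratio of Srebf1 was above that of Fasn by 0.98 with a combined SE of 0.38 and above that of Elovl6 by 1.20 with a combined SE of 0.35. These are 2 of the 45 differences among the 10 genes, chosen after the values were seen and given without a test.

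**Figure D3:**
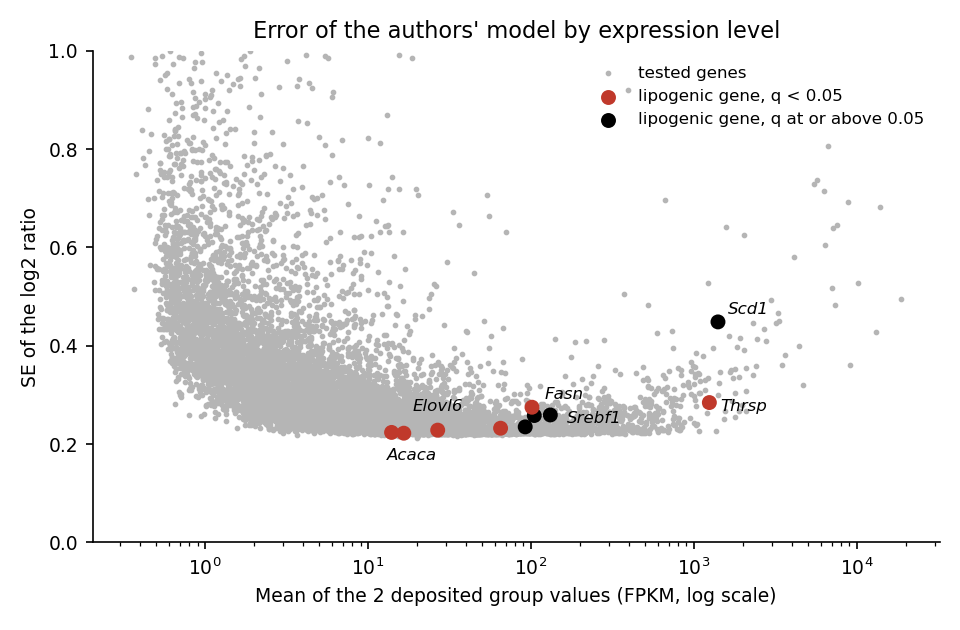
SE of the log2 ratio against the mean of both deposited values (FPKM, log axis) for tested genes (grey; 330 genes with an SE above 1 are not drawn) and for the 10 lipogenic genes (red, q under 0.05; black, at or above it). Scd1 stands at an SE of 0.45 beside Thrsp at 0.28, and the other 8 genes lie between 0.22 and 0.27.

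The promoters of the 3 called genes with the largest falls are shown because these genes fell together, and they give the letters in which sites for the known lipogenic factors would be read. Each sequence runs from 250 bases before to 50 bases after the RefSeq transcription start (GRCm38.p6), 5′ to 3′ on the strand of the gene, and capitals mark CCAAT, the core of the site bound by NF-Y, on either strand. They lie at chr11:120824498-120824797 (minus strand) for Fasn, at chr7:97417501-97417800 (minus strand) for Thrsp and at chr3:129532136-129532435 (plus strand) for Elovl6.
Fasn: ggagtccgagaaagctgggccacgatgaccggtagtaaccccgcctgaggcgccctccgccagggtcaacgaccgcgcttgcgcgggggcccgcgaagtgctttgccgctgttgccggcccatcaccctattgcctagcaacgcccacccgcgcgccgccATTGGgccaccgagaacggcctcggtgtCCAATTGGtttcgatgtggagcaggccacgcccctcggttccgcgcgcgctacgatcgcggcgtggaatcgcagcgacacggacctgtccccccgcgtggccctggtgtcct
Thrsp: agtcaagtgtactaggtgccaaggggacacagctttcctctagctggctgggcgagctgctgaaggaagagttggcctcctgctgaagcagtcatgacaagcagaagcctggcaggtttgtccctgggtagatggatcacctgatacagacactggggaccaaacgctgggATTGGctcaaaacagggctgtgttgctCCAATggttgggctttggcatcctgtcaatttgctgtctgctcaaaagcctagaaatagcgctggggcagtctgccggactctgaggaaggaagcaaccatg
Elovl6: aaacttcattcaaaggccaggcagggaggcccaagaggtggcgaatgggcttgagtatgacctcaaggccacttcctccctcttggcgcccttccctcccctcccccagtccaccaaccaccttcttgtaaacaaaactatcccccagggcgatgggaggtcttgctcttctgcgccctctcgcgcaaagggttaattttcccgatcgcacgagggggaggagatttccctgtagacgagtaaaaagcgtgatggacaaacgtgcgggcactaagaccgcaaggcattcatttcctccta

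Fasn held 3 matches to CCAAT, starting 90, 62 and 59 bases before the start, of which the last pair overlap on opposite strands. Thrsp held 2, starting 79 and 52 bases before the start, and Elovl6 held 0. Over all 10 genes, 9 matched the RefSeq promoter table, all but Scd1, with 12 promoters in all since Srebf1 and Me1 have several starts. CCAAT, searched on both strands, was in 8 of these 12 and in 37.4% of all 32851 promoters of the same length. A second match was in 2 of the 12 and in 11.7% of all promoters. The GC box GGGCGG was in 5 of the 12 and in 35.7% of all promoters. The sterol regulatory element TCACNCCAC was in 0 of the 12 and in 1.24% of all promoters, and the E-box CACGTG in 0 of the 12 and in 7.15%. The windows of Acaca and Acacb lie at their deposited starts, so the starts further upstream in GENCODE M21 were not searched. Among the printed windows, those of Thrsp and Elovl6 hold a GENCODE M21 start upstream of the RefSeq start, at 97417730 and 129532355. Both CCAAT matches of Thrsp lie downstream of its GENCODE start, and the bases before these starts were searched only in part. A match describes the letters and is not a bound site, and a missing match says only that these letters are not in this window.

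**Figure D4:**
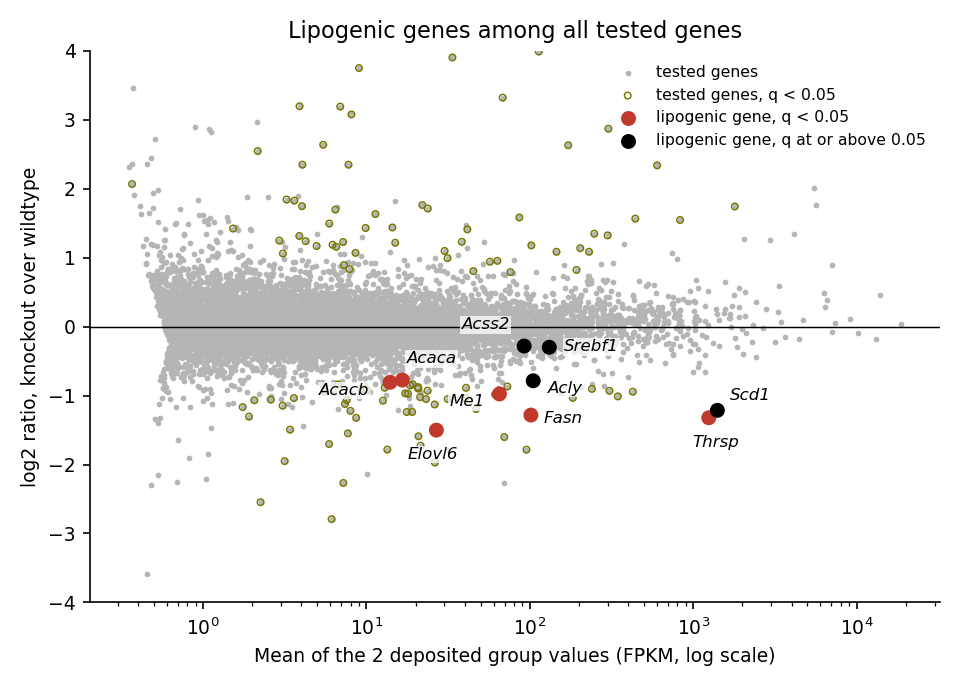
Log2 ratio of knockout over wildtype against the mean of both deposited values (FPKM, log axis) for tested genes (grey; open circles, q under 0.05; 18 genes with ratios beyond 4 in size are not drawn) and for the 10 lipogenic genes (red, q under 0.05; black, at or above it). All 10 lie below 0, and Thrsp and Scd1 stand apart at the right, among the most abundant transcripts.

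The rest of the pathway was read from 8 lists of 71 genes, of which 69 were tested. Of these, 1 fell, 1 rose and 67 did not pass, with 44 ratios below 0. Among all tested genes 0.504% fell, 0.573% rose and 50.1% had ratios below 0. The list gene that fell was Pklr, liver pyruvate kinase, the last step of glycolysis, from 246 to 120 FPKM. Its log2 ratio was -1.03 ± 0.25, with a deposited q of 0.00453 from the authors' table. It belongs to the 11 tested genes that lead from glucose through pyruvate to citrate and its export, of which 1 fell, 0 rose and 2 were lower at an unadjusted p under 0.05. All 11 ratios of that list were below 0, with a median of -0.34. The list of other elongases and desaturases held the gene that rose, Elovl3, an elongase of very long chain fatty acids, from 32.8 to 57.3 FPKM (log2 ratio 0.80 ± 0.23, q = 0.0484). Elovl3 thus moved opposite to Elovl6, and it did not pass under 3 of the 4 scalings: quantile normalization (q = 0.058), equal FPKM sums in the 2 groups (q = 0.247) and equal sums outside the highest 1% of genes (q = 0.0687). Of the other 10 tested genes in that list none passed and 1 was lower at an unadjusted p under 0.05, and the list median was -0.26. With equal FPKM sums Fads2, a desaturase of polyunsaturated fatty acids, passed as lower (log2 ratio -0.86, q = 0.0399). That scaling moved the median of all tested genes to -0.20 and called 140 genes lower, where the deposited values gave 58.

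The factors that control the pathway held no call. With 0.504% of all tested genes falling and 0.573% rising, 0 calls in so short a list tell little. Of 14 tested genes for SREBP processing and lipogenic transcription factors 0 passed and 1 had an unadjusted p under 0.05. That gene was Insig2, which retains the SREBP escort protein SCAP in the endoplasmic reticulum, at 39.2 FPKM in knockout and 26.7 FPKM in wildtype, with a log2 ratio of 0.55 ± 0.26 and a q of 0.759 in the authors' deposited table. The list median was 0.12, with 3 ratios below 0, and it turned to -0.07, with 10 below 0, after scaling to equal FPKM sums. Mlxipl, the gene of ChREBP, named after its values were seen, was at 51.9 FPKM in knockout and 54.0 FPKM in wildtype (log2 ratio -0.06 ± 0.23).

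On the deposited values no call was held by the remaining 5 lists either, each too short for 0 calls to tell much. The 4 other genes for cytosolic NADPH had a median log2 ratio of -0.13 and 0 at an unadjusted p under 0.05. Mthfd1, a folate enzyme, had the smallest p of them, at 65.3 FPKM in knockout and 75.1 FPKM in wildtype. The 8 tested genes that control acetyl-CoA carboxylase and malonyl-CoA had a median of 0.01, which turned to -0.03 or -0.19 under either scaling to a common sum, and 2 were lower at an unadjusted p under 0.05. Prkaa2, a catalytic subunit of AMP-activated kinase, was at 6.28 FPKM in knockout and 8.93 FPKM in wildtype. The 7 tested triglyceride assembly genes had a median of -0.29 and 1 lower at an unadjusted p under 0.05, Lpin1, a phosphatidate phosphatase, at 33.4 FPKM in knockout and 61.0 FPKM in wildtype (log2 ratio -0.87 ± 0.30, q = 0.189). With equal FPKM sums, where the ratios of all genes are lower, Lpin1 passed as lower (q = 0.0252).

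Of the 9 other targets of SREBP-1 and of the oxysterol receptor LXR, 2 were lower at an unadjusted p under 0.05, and the median was -0.29. Gm6484 (now Angptl8), a secreted regulator of lipoprotein lipase that rises with feeding, had the smallest p, at 44.4 FPKM in knockout and 82.6 FPKM in wildtype, with a log2 ratio of -0.90 ± 0.28 and a q of 0.0967 in the authors' deposited table. With equal FPKM sums, where all ratios are lower, 2 genes of this list passed as lower. They were Gm6484 (q = 0.00919) and Aacs, a cytosolic acetoacetyl-CoA synthetase (q = 0.016). The 5 genes of the separate mitochondrial fatty acid synthesis pathway had a median of -0.14 and 0 at an unadjusted p under 0.05. Mcat, which loads malonyl groups in that pathway, was at 19.6 FPKM in knockout and 16.6 FPKM in wildtype. The differences between the medians of these lists and that of the 10 genes were not tested.

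**Figure D5:**
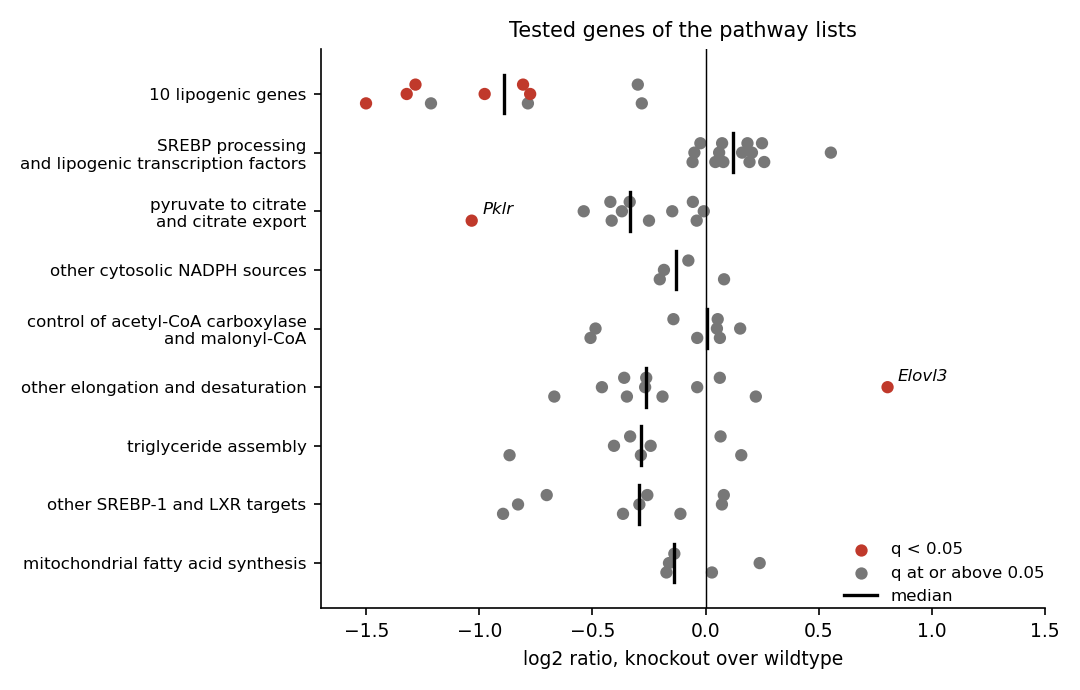
Log2 ratio of knockout over wildtype for each tested gene (points; red, q under 0.05) of the 10 lipogenic genes and of 8 further pathway lists, with the list median as a black bar; points are spread vertically only to keep them apart. The 10 genes have a median of -0.89, and the other lists have medians between -0.34 and 0.12, with Pklr and Elovl3 as their only calls on the deposited values.

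Markers of other cell types were read beside these genes, because the values come from whole tissue, in which fewer cells of a type and less RNA per cell cannot be told apart. Adipocytes also make lipogenic enzymes. The 7 adipocyte markers summed to 21.4 FPKM in knockout and 20.6 FPKM in wildtype livers. Fabp4, a fatty acid binding protein that macrophages and endothelium also make, was the highest at 17.9 and 17.8 FPKM. Lep and Retn are listed at 0 in both groups, and Adipoq and Plin1 at 0 in knockout and at 0.0611 and 0.0553 FPKM in wildtype. Adrb3, an adrenergic receptor of adipocytes, was at 3.36 FPKM in knockout and 1.97 FPKM in wildtype, with a log2 ratio of 0.77 ± 0.33 that did not pass (unadjusted p = 0.0191, q = 0.59 in the authors' deposited table). Cfd, the remaining tested marker, went the other way, at 0.163 FPKM in knockout and 0.801 FPKM in wildtype. Its log2 ratio of -2.30 ± 52.2 did not pass. The deposited locus of Cfd (chromosome 10, 79697305 to 80369637) is the same as that of Elane and Stk11, so its direction carries little weight.

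The remaining marker lists moved in part with the groups. Acute phase genes, which hepatocytes express in inflammation, summed to 52040 FPKM in knockout and 5835 FPKM in wildtype. Of 9 tested, 7 rose and 0 fell, and Saa2 was the highest in knockout, at 17481 FPKM against 86.2 FPKM in wildtype, where Fgb was the highest at 2339 FPKM. The 8 neutrophil markers listed summed to 104 and 5.36 FPKM, with 4 of 7 tested higher at q under 0.05, and S100a9 was the highest at 46.0 and 2.86 FPKM. The 7 Kupffer cell markers summed to 306 and 197 FPKM, 2 of them higher, and Cd5l was the highest at 96.6 and 61.2 FPKM. After scaling to equal FPKM sums 0 of these 7 passed, and 1 (Marco) passed with equal sums outside the highest 1% of genes or after quantile normalization. Cholangiocyte markers summed to 150 and 70.1 FPKM, of which Spp1, the only call, held 142 and 62.6 FPKM. Sinusoidal endothelium markers summed to 84.2 and 87.6 FPKM, led by Clec4g at 54.4 and 50.3 FPKM, and stellate cell markers to 58.2 and 66.5 FPKM, led by Dcn at 35.5 and 41.8 FPKM, with 0 calls in either list and 1 and 2 lower at an unadjusted p under 0.05. Of 9 tested hepatocyte markers 0 passed, 1 was lower at an unadjusted p under 0.05 and the median log2 ratio was -0.13. With equal FPKM sums, where all ratios are lower, 1 hepatocyte marker (G6pc, q = 0.0137) and 1 stellate cell marker (Reln, q = 0.0174) passed as lower. The part of the acute phase, neutrophil and Kupffer cell differences in the fall of the lipogenic genes was not tested.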

How the data were processed

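RNA of 3 knockout and 3 wildtype liver libraries was compared; per the labels' protocols it was taken up in Trizol and made into libraries with the Illumina TruSeq RNA kit. Bowtie2 and mm10 are named, without version, per the submitters' processing notes; the program that made the tables and its handling of strand are not given in the sources used here. The authors deposited a full table and a short list of 95 genes. The short list holds the called genes with a log2 ratio of at least 1 in size, 3 of the 10 members among them. The deposited values have no unit in the file headers and were treated as FPKM from the Cuffdiff layout. Per the file headers, the log2 ratio puts wildtype above knockout; it was turned round here. The deposited test statistic, a score, gave the SE (ratio divided by score). The deposited q-value equals a Benjamini-Hochberg adjustment of the deposited p-value over 11515 genes to within 1.99e-06.

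No value per library was used here, so the authors' test stands as the main test and no depth, floor or counting interval can be given. Calls are q under 0.05. Alternatives rescaled the ratios, kept each SE and adjusted the normal p again over all tested genes (Python 3.11.15, scipy 1.17.1). This step was run on simulated data with noise drawn at the same SE, which checks the computation and not the SE. The members, lists and alternatives were chosen with earlier results of these data known. All members were to be named, and of each list the called genes, or else the gene with the smallest p. Of marker lists the most abundant gene was to be named. Other genes were chosen after their values were seen, also where this is not said beside them. Of the list genes, 5 were found under an older symbol and 1, Ly6g, was not found. Promoters are from RefSeq (GRCm38.p6), overlaps from GENCODE M21. Gene positions without a named source are the deposited loci.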

Additional observations from a re-analysis of the deposited data

How the results depend on the processing

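The fall of 6 members and the rise of 0 were the same in number under centring on the median, quantile normalization, scaling to the same sum outside the highest 1% of genes, a minimum mean of 1 FPKM and q under 0.1. Scaling both groups to the same sum of listed FPKM moved the median of all tested genes to -0.20 and gave 7 members lower, since Acly passed (log2 ratio -0.98, q = 0.0128). That scaling called 140 genes lower and 49 higher, 189 in all, where the deposited values gave 58 lower and 66 higher, 124 in all. At q under 0.01 the calls were 79 in all and 4 members, without Acaca and Acacb. Over the 4 scalings the q of Acaca ran from 0.00185 to 0.0466, that of Acacb from 0.00121 to 0.0349 and that of Scd1 from 0.0877 to 0.303. The log2 ratio of the members' share of FPKM was -1.36 over all listed genes and -0.75 over genes outside the highest 1%, a sum that leaves out Scd1 and Thrsp. The members' ratios stayed below 0 under all 4 scalings. With equal FPKM sums the medians of 4 other lists turned from above to below 0: SREBP processing (-0.07), control of acetyl-CoA carboxylase (-0.19), adipocyte markers (-0.19) and cholangiocyte markers (-0.09). With equal sums outside the highest 1% those of acetyl-CoA carboxylase control (-0.03) and of adipocyte markers (-0.02) did. No paired analysis was possible because the deposited columns hold 1 value per group, and leaving out a replicate was not possible for the same reason. On the deposited values at q under 0.05, an SE of at least 0.22 for each member puts a log2 fall smaller than 0.77 out of reach of a call.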
